A study of Mus musculus with 12 samples.

Results

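The genes of muscle excitation-contraction coupling were followed through the differentiation of C2C12 cells, an immortalized line of mouse myoblasts, with and without the bromodomain inhibitor PFI-3. The set was defined by a list of 41 symbols for calcium channels, proteins of the sarcoplasmic reticulum and the triad, and proteins that form T-tubules. Because Mg53 is another name of Trim72, the list held 40 genes, and these 40 were found among the 16288 genes that the tables list. Cells received either the vehicle DMSO or 50 uM PFI-3, which binds the bromodomains of the chromatin-remodelling proteins BRM, BRG1 and polybromo. Proliferating cells (GM, growth medium with fetal bovine serum) were exposed for 12 h and then harvested. For the later stages, cells were exposed for 12 h, moved to a medium with horse serum and insulin, given fresh DMSO or PFI-3 every 24 h, and harvested 24 h (DM 24h) or 48 h (DM 48h) after induction. There were 2 libraries (A and B) of whole-culture RNA in each of the 6 groups, written as GM, 24 h and 48 h below. A single cell line was used, its label is myoblast at every stage, and cultures in differentiation medium can hold differentiated and undifferentiated cells together.

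Contraction of skeletal muscle starts when an action potential runs along the surface membrane and down the T-tubules, which are infoldings of that membrane. There the dihydropyridine receptor, a calcium channel used as a voltage sensor, pulls open the ryanodine receptor in the facing membrane of the sarcoplasmic reticulum, and calcium leaves the store. Calsequestrin binds calcium inside the store, junctophilins hold the facing membranes together at the triad, and SERCA pumps return the calcium afterwards. Several of these proteins exist as a form typical of fast skeletal muscle and a paralogue used in heart, in slow or immature muscle, or in many cell types. Myoblasts build the system anew when they leave the cell cycle and fuse.

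Total expected counts lay between 12576374 and 13658352 per library. Values are given as CPM (counts scaled to a common library size) or, where genes are compared with each other, as FPKM, which also divides by transcript length. The duplicates lay further apart in GM than later: among genes averaging 50 counts or more, the log2 ratio of B to A had an SD of 0.33 (DMSO) and 0.301 (PFI-3) in GM and 0.138 to 0.151 in the DM groups. Comparisons use edgeR's quasi-likelihood test on 12 libraries with Benjamini-Hochberg adjusted p, called at 0.05, and measure only the spread between these duplicates, which may be partly technical. Of the 40 genes, 39 passed the low-count filter. Sarcolipin (Sln), a small inhibitor of SERCA, did not, with 3 and 5 counts at 48 h with DMSO, 1 and 0 with PFI-3, and 0 in the other 8 libraries. The counts of all 40 genes were whole numbers in every library (within 1e-09), whereas 1495 of all 16288 genes (9.18%) had a fractional count in at least 1 library.

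Marker levels moved with stage and with PFI-3, and their part in the results was not tested. The summed CPM of 8 genes of differentiating muscle (Myod1, Myog, Mymk, Myh3, Ckm, Acta1, Des and Tnnt3) was 571 to 626 in GM with DMSO and 394 to 507 with PFI-3. At 24 h it was 3431 and 3435 with DMSO and 1869 and 1871 with PFI-3, and at 48 h it lay between 18869 and 19003 with DMSO and between 12908 and 13229 with PFI-3. Singly, Myog, Mymk, Myh3, Ckm, Acta1 and Tnnt3 were lower with PFI-3 at both DM stages. Myod1 (edgeR adjusted p = 0.0574 at 24 h and 0.206 at 48 h) and Des (0.0897 and 0.0786) passed at neither. The 4 genes listed for dividing myoblasts did not move together. At 24 h Mki67, Top2a and Pax7 were lower with PFI-3 (edgeR adjusted p = 0.00117, 0.00882 and 0.00112) and Myf5 did not pass (0.247), and their sum was 1480 and 1513 CPM with DMSO and 1115 and 1153 with PFI-3. At 48 h Mki67 (419 and 407 CPM against 238 and 222) and Top2a (339 and 340.1 against 173 and 186) were higher with PFI-3, Pax7 was lower (136 and 130.5 against 228 and 209, adjusted p = 0.000393) and Myf5 did not pass (0.534). In RNA from whole cultures, fewer differentiated cells and less RNA per differentiated cell cannot be told apart. Of 5 cardiac markers, Ryr2 and Nppa stayed under 1 CPM in every library, and the sum of the 5 reached 19.4 CPM at 48 h with DMSO, of which Myh6 was up to 17. The smooth muscle myosin Myh11 stayed under 1 CPM, although Acta2, which myoblasts also make, was between 799 and 4962 CPM. Cnn1, also listed for smooth muscle, was at 34.7 and 10.0 CPM in GM with DMSO and 7.20 and 4.13 with PFI-3. With DMSO it was at 3.33 and 1.78 CPM at 24 h and 1.06 and 1.31 at 48 h. Marker sums for endothelium, adipocytes, epithelium and neurons were at most 1.39 CPM in every library (Plin1 and Snap25 were not listed), and that of immune cells reached 9.05 CPM in GM with PFI-3, made up by Cd68, with Ptprc under 1 CPM and Adgre1 not listed.

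The first comparison asked which coupling genes are switched on, and when, in DMSO cells. The median FPKM of the 40 genes was 0.76 in GM, 9.71 at 24 h and 36.8 at 48 h, and the number of genes at 1 FPKM or more was 18, 32 and 37. Compared with GM, 32 of the 39 tested genes were higher at 24 h and 4 were lower, where 30.6% of all 12545 tested genes were higher and 30.0% lower. At 48 h, 35 were higher than in GM and 3 lower, beside 37.2% and 35.9% of all genes. From DM 24h to DM 48h, 35 rose and 2 (Itpr1 and Sri) fell, beside 24.2% and 23.9% of all genes. The median log2 difference between DM 48h and DM 24h was 2.05 over the 39 genes and 0.00 over all genes. In 12 of the 40 genes both GM DMSO libraries together held at most 3 counts, so those of them that passed the filter did so through other libraries, and their differences from GM are not counted as support. The 32 and 35 genes called higher than in GM include such genes, for example Cacna1s, Scn4a and Trim72. Those counts against GM are therefore a description only, beside the shares of all genes. Likewise, the 35 genes that rose between the DM stages include some that passed the filter only through DM 48h libraries. Examples are Casq1, with 5 and 5 counts at 24 h with DMSO, and Sypl2, with 0 and 0. Their rises are not counted as support, and the count of 35 is a description too. The comparisons share their DMSO libraries.

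**Figure D1:**
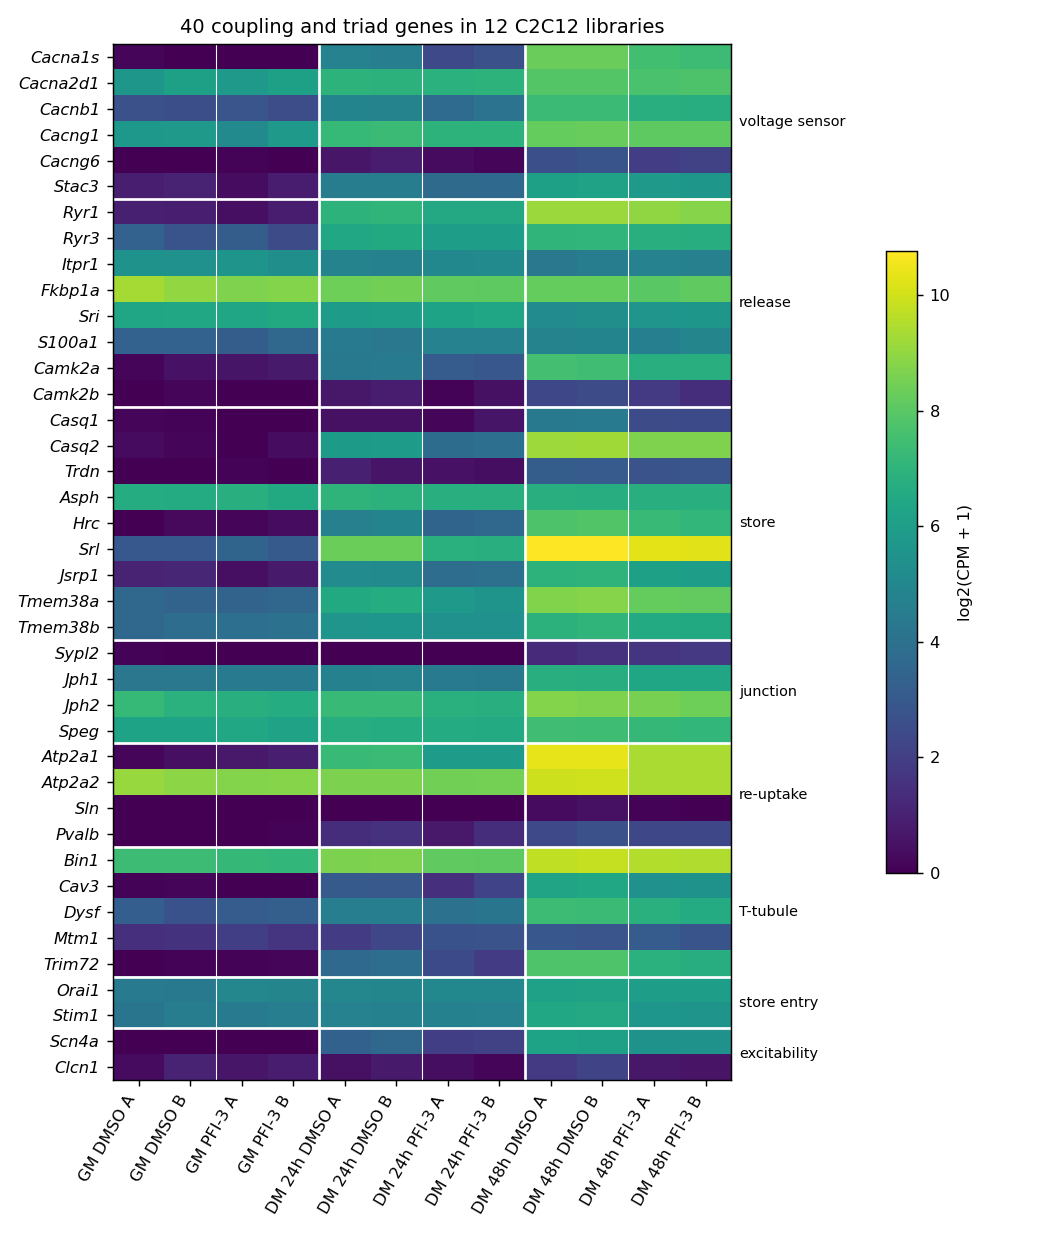
Level of each of the 40 genes (rows, grouped by role) in each of the 12 libraries (columns), as log2(CPM + 1). Most genes of the voltage sensor, the store and the T-tubule are higher at 48 h than in GM, and the DM 24h PFI-3 libraries lie below the DM 24h DMSO libraries for Cacna1s, Casq2, Srl and Trim72.

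Some of the genes were well expressed before induction. Bin1, which shapes T-tubule membrane, was at 166 CPM in both libraries in GM with DMSO, at 399.6 and 404 at 24 h and at 856 and 895 at 48 h. Junctophilin Jph2 was at 146 and 115 CPM in GM, 157 and 156 at 24 h and 439 and 413 at 48 h. The channel subunits Cacna2d1 and Cacng1, the pump Atp2a2, the kinase Speg, the release regulators Fkbp1a and Sri, and Asph, whose locus encodes the triad protein junctin, also exceeded 50 CPM in both GM DMSO libraries.

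Most core genes were near 0 in GM and appeared with induction. Cacna1s, the pore and voltage sensor of the dihydropyridine receptor, was at 0.157 and 0 CPM in GM with DMSO, 25.9 and 23.2 at 24 h and 315 and 312 at 48 h. The release channel Ryr1 went from 0.941 and 0.886 CPM to 124 and 131 and 567 and 564. Scn4a, the sodium channel of the muscle action potential, had 0 counts in the 4 GM libraries, 9.27 and 11.5 CPM at 24 h and 75.1 and 69.0 at 48 h. Over both libraries that is at least 91.3-fold and at least 632-fold above the floor of 3 counts over the GM DMSO group. The other core genes of the store, pump and membrane were also low before induction. In GM with DMSO, Atp2a1 was at 0.157 and 0.369 CPM, Casq2 at 0.235 and 0.148, Hrc at 0 and 0.221, Trim72 at 0 and 0.0738, Cav3 at 0.0784 and 0.148, Stac3 at 0.862 and 1.03 and Clcn1 at 0.235 and 1.11. Srl, at 6.74 and 6.87 CPM, Tmem38a, at 11.4 and 9.74, and Jph1, at 18.2 and 19.0, were intermediate. Trdn had 0 counts in both GM DMSO libraries.

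Some genes came late. Trim72 (MG53), which patches torn membrane, was at 11.73 and 14.0 CPM at 24 h and 221 in both libraries at 48 h, a log2 rise of 4.10 ± 0.13 (SE; edgeR adjusted p = 4.2e-10). At 24 h it had reached 5.83% of its DM 48h level, beside a median of 22.3% over the 35 genes that rose. Caveolin-3 (Cav3), a membrane protein of developing T-tubules, had reached 8.84%, at 7.21 and 7.04 CPM and then 77.7 and 83.7. Such a low share was not particular to these genes: Cacna1s had reached 7.84%, Trdn 9.49% and Casq2 10.0%. Calsequestrin-1 (Casq1), the calcium buffer of fast fibres, had reached 1.96%. It had 2 and 1 counts in GM, 5 and 5 at 24 h and 239 and 251 at 48 h. The log2 rise between the DM stages was 5.64 ± 0.30. Sypl2 (mitsugumin-29), a protein of the triad junction, had 0 counts in both DM 24h libraries and 18 and 23 at 48 h, at least 14.2-fold above the floor of 3 counts over the group. Casq1 and Sypl2 passed the low-count filter only through DM 48h libraries, so their rises are a description and not support.

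A few genes of calcium release ran the other way. The inositol trisphosphate receptor Itpr1, a release channel of many cell types, was at 44.1 and 42.4 CPM in GM, 27.5 and 25.3 at 24 h and 18.5 and 21.8 at 48 h. Its fall between the DM stages (-0.39 ± 0.11 on the log2 scale, edgeR adjusted p = 0.014) was lost without DMSO library A of DM 48h (adjusted p = 0.141) or of DM 24h. Sorcin (Sri), a calcium-binding regulator of release, was at 80.7 and 86.7 CPM in GM, 59.2 and 64.6 at 24 h and 35.5 and 38.4 at 48 h. Both genes thus fell at each step. Fkbp1a, which stabilises the closed ryanodine receptor and is made in most cells, fell from 629 and 519 CPM in GM to 336 and 348 at 24 h (adjusted p = 9.84e-06) and was at 299.7 and 296 at 48 h. Atp2a2, the SERCA2 pump of heart, slow fibres and most other cells, dipped: it was at 550.2 and 477 CPM in GM, 394 and 395 at 24 h (adjusted p = 0.000448) and 978 and 1000.1 at 48 h.

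Several smaller changes with time rested on single libraries. Between GM and DM 24h, the rises of Asph (edgeR adjusted p = 0.00614, and 0.0612 without DM 24h library A), Camk2b (0.0128, and 0.0707 without GM library A; also lost without DM 24h library B) and Stim1 (0.0135, and 0.129 without GM library A; also lost without DM 24h library A) were lost in this way. So were those of Jph2 (0.0418, and 0.31 without GM library B; also lost without either DM 24h library) and Mtm1 (0.0292, and 0.271 without DM 24h library B; also lost without either GM library). Between the DM stages, the rise of Mtm1 was lost without DM 24h library A (adjusted p = 0.0706) and that of Pvalb without DM 48h library B (0.0538).

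Per length, the most abundant of the 40 genes at 48 h with DMSO were Bin1 at 405 ± 11.8 FPKM (SD, n = 2), Atp2a1 at 368 ± 2.92, Srl at 281 ± 5.18, Cacng1 at 252 ± 1.86 and Casq2 at 226 ± 4.66. Next came Atp2a2 at 218 ± 3.37 FPKM, Tmem38a at 179.7 ± 4.63 and Fkbp1a at 179 ± 1.86, and the libraries of the last pair overlapped. Cacna1s was at 48.9 ± 0.332 FPKM, Stac3 at 39.4 ± 1.31 and Ryr1 at 35.4 ± 0.113. The lowest levels were those of Trdn (triadin, the anchor of calsequestrin) at 1.70 ± 0.0778 FPKM, Camk2b at 1.03 ± 0.0919, Clcn1 at 0.855 ± 0.191, Sln at 0.680 ± 0.240 and Sypl2 at 0.505 ± 0.0919. Libraries overlapped between Camk2b and Clcn1, between Clcn1 and Sln, and between Sln and Sypl2.

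The 250 bases before the annotated start are shown for 5 genes, from RefSeq on build GRCm38.p6. These 5 were chosen after their values were seen: Casq1 and Casq2 are paralogues with their larger PFI-3 difference at different stages, Atp2a1 and Cacna1s were lower with PFI-3 at both DM stages, and Clcn1, the chloride channel that steadies the muscle membrane, had the largest fall at 48 h. For Casq1 the change between the stages did not pass with 12 libraries. Capitals mark matches to the E-box CANNTG, the core motif of myogenic bHLH factors, and to the MEF2 consensus, both searched on both strands. No E-box match overlaps a MEF2 match in these windows.
Casq1: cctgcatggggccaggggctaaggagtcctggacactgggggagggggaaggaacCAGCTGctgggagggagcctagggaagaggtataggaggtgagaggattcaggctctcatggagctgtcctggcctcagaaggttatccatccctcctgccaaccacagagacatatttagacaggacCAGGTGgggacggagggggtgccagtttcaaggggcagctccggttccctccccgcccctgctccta
Casq2: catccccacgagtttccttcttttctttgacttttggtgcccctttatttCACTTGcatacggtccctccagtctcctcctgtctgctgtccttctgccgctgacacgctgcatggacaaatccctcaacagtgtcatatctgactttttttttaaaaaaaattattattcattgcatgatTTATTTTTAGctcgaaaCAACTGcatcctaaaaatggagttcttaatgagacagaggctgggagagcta
Atp2a1: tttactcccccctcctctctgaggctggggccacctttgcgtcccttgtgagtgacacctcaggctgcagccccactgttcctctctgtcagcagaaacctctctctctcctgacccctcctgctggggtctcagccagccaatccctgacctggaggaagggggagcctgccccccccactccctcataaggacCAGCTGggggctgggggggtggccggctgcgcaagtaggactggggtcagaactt
Cacna1s: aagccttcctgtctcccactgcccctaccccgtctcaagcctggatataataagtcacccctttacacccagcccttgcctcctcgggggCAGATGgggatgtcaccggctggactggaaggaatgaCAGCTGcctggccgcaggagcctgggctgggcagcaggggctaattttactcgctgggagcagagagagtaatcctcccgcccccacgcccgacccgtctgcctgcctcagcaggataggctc
Clcn1: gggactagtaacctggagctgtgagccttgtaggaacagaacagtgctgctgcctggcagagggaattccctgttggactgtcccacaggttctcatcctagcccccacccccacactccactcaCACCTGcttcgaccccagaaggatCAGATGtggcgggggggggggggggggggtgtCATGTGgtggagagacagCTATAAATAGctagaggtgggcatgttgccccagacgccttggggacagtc
The windows lie at chr1:172219896-172220145 (minus strand, Casq1), chr3:102086165-102086414 (plus strand, Casq2), chr7:126463074-126463323 (minus strand, Atp2a1), chr1:136052561-136052810 (plus strand, Cacna1s), chr6:42286435-42286684 (plus strand, Clcn1). The Casq1 window holds 2 E-box matches and 0 MEF2 matches, the Casq2 window 2 and 1, the Atp2a1 window 1 and 0, the Cacna1s window 2 and 0, and the Clcn1 window 3 and 1. Of the 40 genes, 26 had a window in the table. E-box matches were found for 19 of the 26 (73.1%), and for 69.3% of all 27025 genes with a window. MEF2 matches were found for 4 of the 26 (Casq2, Clcn1, Pvalb and Speg; 15.4%), and for 3.42% of all genes. A match is a run of letters, not a site.

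The comparison of PFI-3 with DMSO at each DM stage asked how the coupling genes respond when these bromodomains are blocked. At 24 h, 20 of the 39 tested genes were lower with PFI-3 and 3 were higher, where 11.4% of all tested genes were lower and 12.2% higher. At 48 h, 25 were lower and 2 higher, beside 14.0% of all genes lower and 13.4% higher. The median log2 difference of the 39 genes was -0.52 at 24 h and -0.42 at 48 h, and that of all tested genes was 0.00 at both. These comparisons share no library. Below, whether the libraries of 2 groups overlapped is a description and not support. The groups of genes that did not pass were often apart as well, and the share over all genes was not counted. With 2 libraries against 2, an exact permutation test cannot give a two-sided p below 0.33. By the threshold, 17 genes were called lower at both stages, 3 at 24 h and not at 48 h (Fkbp1a, Jph2 and Ryr3), and 8 at 48 h and not at 24 h (Atp2a2, Cacng6, Casq1, Clcn1, Orai1, Speg, Stim1 and Tmem38b). Sri was higher at both, Mtm1 and S100a1 at 24 h and Itpr1 at 48 h, and 7 genes passed at neither: Asph, Cacna2d1, Cacng1, Camk2b, Pvalb, Sypl2 and Trdn. Passing at 1 stage does not show a difference between stages, which was tested separately. A fit without the GM libraries, whose duplicates lie further apart, called more genes overall: 21.8% of all genes lower and 22.9% higher at 24 h, and 24.3% and 22.9% at 48 h. It kept all of the calls above and gave 25 lower and 4 higher at 24 h, and 31 lower and 2 higher at 48 h. Added as lower at 24 h were Asph, Atp2a2, Cacng1, Cacng6 and Tmem38b, with Itpr1 added as higher. Added as lower at 48 h were Cacna2d1, Cacng1, Camk2b, Fkbp1a, Jph2 and Ryr3, so that the 3 genes named above were then lower at both stages.

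**Figure D2:**
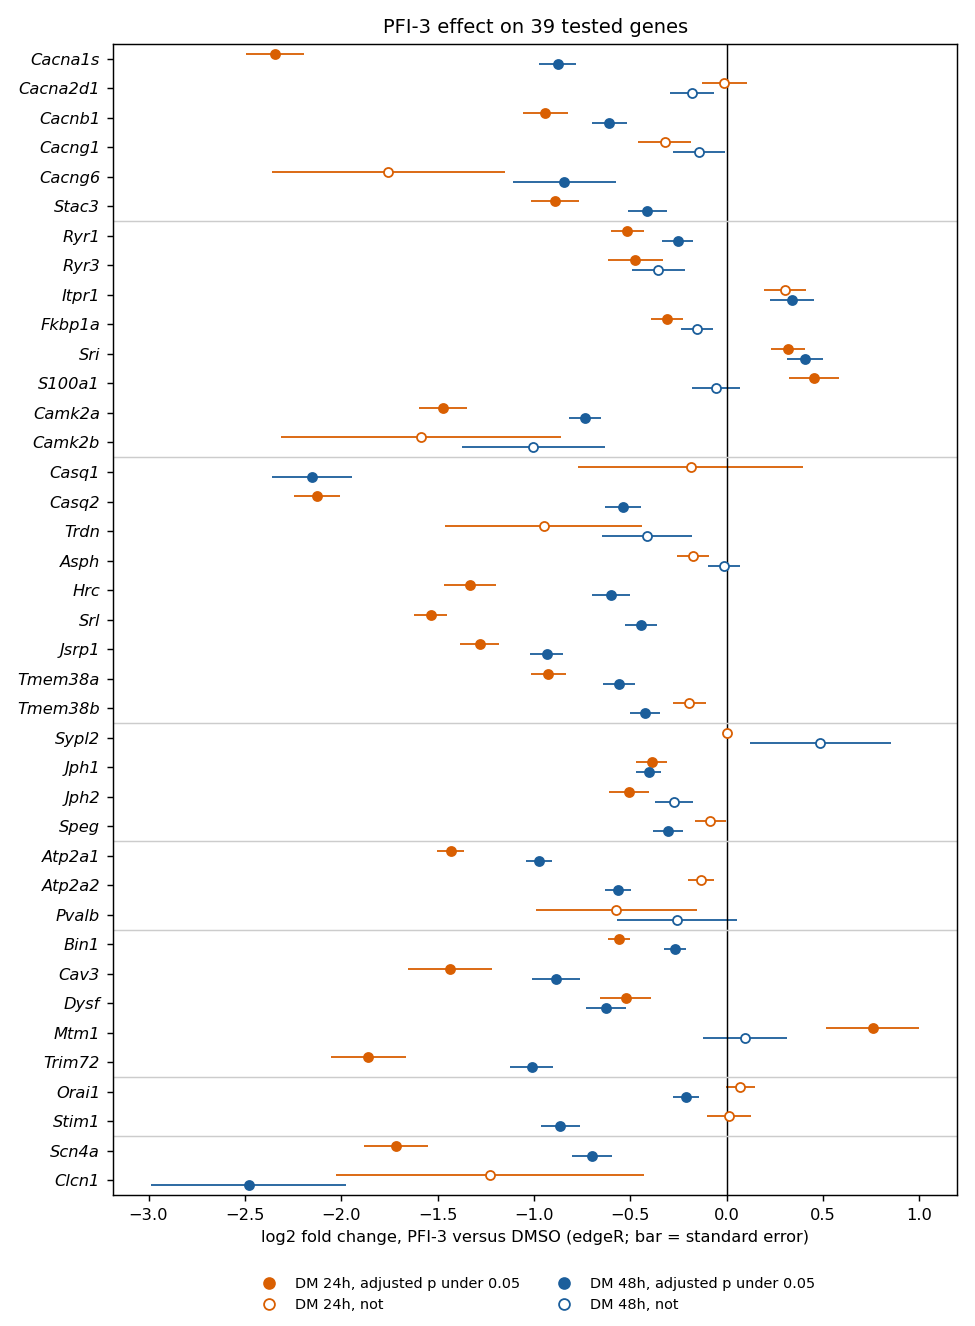
Log2 difference of PFI-3 minus DMSO for the 39 tested genes, grouped by role, at 24 h and DM 48h. Bars are standard errors from the edgeR fit and filled points passed an adjusted p of 0.05; Cacna1s (-2.34) and Casq2 (-2.12) lie lowest at 24 h, and Clcn1 (-2.48) and Casq1 (-2.15) at 48 h.

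In the voltage sensor, 3 of 6 tested genes fell at 24 h and 4 at 48 h, beside 11.4% and 14.0% of all tested genes. The counts by role here and below cover few genes and are a description. Cacna1s was at 25.9 and 23.2 CPM with DMSO and 4.26 and 5.42 with PFI-3 at 24 h, and at 315 and 312 CPM with DMSO and 178 and 163 with PFI-3 at 48 h. Both PFI-3 libraries lay below both DMSO libraries at each stage, with log2 differences of -2.34 ± 0.15 (SE; edgeR adjusted p = 2.11e-06) and -0.88 ± 0.10 (6.33e-05). Stac3, the adaptor that the skeletal voltage sensor needs in order to reach and open the release channel, was at 22.7 and 21.8 CPM with DMSO and 12.1 and 11.9 with PFI-3 at 24 h, and at 68.8 and 72.3 CPM with DMSO and 55.5 and 50.6 with PFI-3 at 48 h. Its log2 differences were -0.89 ± 0.12 (adjusted p = 0.000353) and -0.41 ± 0.10 (0.00979), and the later call was lost without PFI-3 library B (adjusted p = 0.11) or DMSO library B. The intracellular beta subunit Cacnb1 fell by 0.94 ± 0.12 and 0.61 ± 0.09 on the log2 scale. Cacng6, a gamma subunit with 63 and 73 counts at 48 h with DMSO, passed at 48 h (adjusted p = 0.038), a call lost on leaving out any 1 of the 4 libraries (highest adjusted p 0.229, without PFI-3 library A). The auxiliary subunits Cacna2d1 and Cacng1 passed at neither stage with 12 libraries. Without the GM libraries Cacng1 was lower at both (-0.32, adjusted p = 1.17e-06, and -0.15, 0.00543) and Cacna2d1 at 48 h (-0.18, 0.000757). Cacna2d1 was at 122 and 121 CPM with DMSO and 116 and 125 with PFI-3 at 24 h, and its log2 difference at 48 h was -0.18 ± 0.11 (adjusted p = 0.273).

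Of 8 genes of calcium release, 4 fell and 2 rose with PFI-3 at 24 h, and 2 fell and 2 rose at 48 h. Of all tested genes, 11.4% were lower and 12.2% higher at 24 h, and 14.0% and 13.4% at 48 h. With 8 genes, the counts at 48 h are near those shares. Ryr1 was at 124 and 131 CPM with DMSO and 89.6 and 89.2 with PFI-3 at 24 h, and at 567 and 564 CPM with DMSO and 508 and 442 with PFI-3 at 48 h. Its groups did not overlap, and the log2 differences were -0.51 ± 0.09 (SE; edgeR adjusted p = 0.00135) and -0.25 ± 0.08 (0.0366). The DM 24h call of Ryr1 passed under each of 14 alternatives, whereas the DM 48h call was lost without PFI-3 library B (adjusted p = 0.312) or either DMSO library. Ryr3, the paralogue of immature muscle, was at 86.6 and 91.6 CPM with DMSO and 64.7 and 63.5 with PFI-3 at 24 h (adjusted p = 0.0311) and at 132 and 135 CPM with DMSO and 106 and 103 with PFI-3 at 48 h (0.0783). Camk2a, a calcium-dependent kinase whose locus also encodes a muscle membrane protein, was at 19.6 and 19.97 CPM with DMSO and 7.69 and 6.56 with PFI-3 at 24 h, and at 188 and 173 CPM with DMSO and 109 and 108 with PFI-3 at 48 h, with differences of -1.47 ± 0.12 and -0.73 ± 0.08. Fkbp1a was at 336 and 348 CPM with DMSO and 278 and 273 with PFI-3 at 24 h (-0.31 ± 0.08, adjusted p = 0.0182). The DM 24h calls of Ryr3 and Fkbp1a were lost on leaving out any 1 of the 4 libraries (highest adjusted p 0.176 and 0.126, both without DMSO library B).

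The release genes that were higher with PFI-3 are calcium sensors and the inositol trisphosphate receptor. Sri, which fell with differentiation in DMSO cells, was at 59.2 and 64.6 CPM with DMSO and 74.1 and 80.4 with PFI-3 at 24 h, a log2 difference of 0.32 ± 0.09 (SE; edgeR adjusted p = 0.0208), and at 35.5 and 38.4 CPM with DMSO and 47.8 and 50.2 with PFI-3 at 48 h, a difference of 0.41 ± 0.09 (0.00644). Itpr1, which also fell with differentiation, was at 18.5 and 21.8 CPM with DMSO and 26.5 and 24.7 with PFI-3 at 48 h (0.34 ± 0.11, adjusted p = 0.043) and at 27.5 and 25.3 CPM with DMSO and 31.2 and 33.9 with PFI-3 at 24 h (0.30 ± 0.11, 0.0607). S100a1, a calcium sensor that binds the ryanodine receptor, was at 19.7 and 19.0 CPM with DMSO and 26.6 and 26.3 with PFI-3 at 24 h (0.45 ± 0.13, adjusted p = 0.024), and at 48 h its groups overlapped, at 27.3 and 27.8 CPM with DMSO and 24.1 and 29.0 with PFI-3. Most of these calls depended on single libraries. At 24 h the calls of Sri (adjusted p 0.0513 to 0.17, highest without DMSO library A) and S100a1 (0.1 to 0.135, highest without DMSO library B) were lost on leaving out any 1 of the 4 libraries. At 48 h that of Sri was lost without DMSO library A (0.0714) or PFI-3 library B, and that of Itpr1 without DMSO library A (0.295) or either PFI-3 library. DESeq2 called none of the 3 DM 24h rises and did not call Itpr1 at 48 h.

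Of 9 store genes, 5 fell at 24 h and 7 at 48 h, beside 11.4% and 14.0% of all tested genes. The larger difference was at 24 h for Casq2 and at 48 h for Casq1. Casq2, the calsequestrin of heart and slow fibres, was at 57.4 and 61.3 CPM with DMSO and 12.9 and 14.3 with PFI-3 at 24 h, a log2 difference of -2.12 ± 0.12 (SE; edgeR adjusted p = 3.74e-07). At 48 h it was at 584 and 603 CPM with DMSO and 413 and 404 with PFI-3, a difference of -0.54 ± 0.09 (adjusted p = 0.00105) that did not pass with limma on log2(FPKM + 0.1). Casq1 had 5 and 5 counts with DMSO and 2 and 7 with PFI-3 at 24 h, where the groups overlapped, and 239 and 251 counts with DMSO and 59 and 56 with PFI-3 at 48 h. The DM 48h difference of Casq1 was -2.15 ± 0.21 (adjusted p = 2.64e-05), a ratio of 0.225 of the scaled counts. At 24 h that ratio was 0.875 with a 95% interval of 0.315 to 2.4 for counting error only, on 10 counts with DMSO and 9 with PFI-3. The interval leaves out the spread between libraries, so it does not show a stage difference, and small differences were not detectable at this depth. In the interaction test with 12 libraries Casq1 did not pass (edgeR adjusted p = 0.079).

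Other store genes fell at both stages. Sarcalumenin (Srl), a calcium-binding glycoprotein of the reticulum, was at 322 and 323 CPM with DMSO and 111 in both libraries with PFI-3 at 24 h (-1.54 ± 0.09, edgeR adjusted p = 4.5e-07) and at 1692 and 1732 CPM with DMSO and 1282 and 1235 with PFI-3 at 48 h (-0.44 ± 0.08, 0.00185). Hrc, a histidine-rich calcium-binding protein of the store lumen, was at 24.7 and 27.8 CPM with DMSO and 9.97 and 10.9 with PFI-3 and then at 212 and 225 CPM with DMSO and 151 and 137 with PFI-3. Tmem38a, the TRIC-A potassium channel that balances charge during release, was at 92.3 and 101 CPM with DMSO and 55.0 and 46.9 with PFI-3 at 24 h, and at 426 and 443 CPM with DMSO and 297 and 292 with PFI-3 at 48 h. The groups of these 3 genes did not overlap at either stage. Jsrp1 (JP-45), which links the store to the voltage sensor, fell by 1.28 ± 0.10 and 0.93 ± 0.08 on the log2 scale. Tmem38b, the TRIC-B channel of most cells, passed at 48 h, at 119.95 and 131 CPM with DMSO and 94.4 and 92.6 with PFI-3 (-0.42 ± 0.08, adjusted p = 0.00174). Triadin (Trdn) had 12 and 7 counts with DMSO and 6 and 4 with PFI-3 at 24 h, and 100 and 93 counts with DMSO and 73 and 78 with PFI-3 at 48 h, and passed at neither (adjusted p = 0.207 and 0.224). Asph was at 108 and 105 CPM with DMSO and 106 and 105 with PFI-3 at 48 h, where its groups overlapped.

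Of the SERCA pumps, Atp2a1 fell at both DM stages and Atp2a2 at 48 h. Atp2a1 (SERCA1, the pump of fast fibres) was at 153 and 162 CPM with DMSO and 58.5 and 58.3 with PFI-3 at 24 h, and at 1319 and 1306 CPM with DMSO and 670.05 and 667 with PFI-3 at 48 h. The log2 differences were -1.43 ± 0.07 (SE; edgeR adjusted p = 1.35e-07) and -0.97 ± 0.07 (1.42e-06). Atp2a2 was at 394 and 395 CPM with DMSO and 356 and 363 with PFI-3 at 24 h, a difference of -0.13 ± 0.07 that did not pass with 12 libraries (adjusted p = 0.184) and passed without the GM libraries (-0.13, 0.00852). At 48 h it was at 978 and 1000.1 CPM with DMSO and 672 and 665 with PFI-3, a difference of -0.57 ± 0.07 (adjusted p = 8.18e-05). Parvalbumin (Pvalb), a cytosolic calcium buffer of fast fibres, had a highest value of 5.32 CPM and passed at neither stage.

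Of 5 T-tubule genes, 4 fell at each DM stage, beside 11.4% of all tested genes at 24 h and 14.0% at 48 h. Bin1 was at 399.6 and 404 CPM with DMSO and 277 and 268 with PFI-3 at 24 h, and at 856 and 895 CPM with DMSO and 732 and 721 with PFI-3 at 48 h. Trim72 was at 11.73 and 14.0 CPM with DMSO and 4.41 and 2.67 with PFI-3 and then at 221 in both libraries with DMSO and 116 and 103 with PFI-3, log2 differences of -1.86 ± 0.19 (SE; edgeR adjusted p = 4.03e-05) and -1.01 ± 0.11 (3.75e-05). Cav3 was at 7.21 and 7.04 CPM with DMSO and 1.83 and 3.43 with PFI-3 at 24 h, and at 77.7 and 83.7 CPM with DMSO and 42.3 and 45.1 with PFI-3 at 48 h. The PFI-3 libraries of these 3 genes lay below the DMSO libraries at both stages. Dysferlin (Dysf), the calcium sensor of membrane repair, fell by 0.52 ± 0.13 and 0.62 ± 0.10 on the log2 scale, and its DM 24h call was lost without PFI-3 library A (adjusted p = 0.123) or either DMSO library. Myotubularin (Mtm1), a lipid phosphatase of membrane traffic, was the exception, with 33 and 51 counts with DMSO and 72 and 74 with PFI-3 at 24 h (0.76 ± 0.24, adjusted p = 0.0398). At 48 h it had 81 and 75 counts with DMSO and 98 and 76 with PFI-3, and its groups overlapped. The DM 24h call of Mtm1 was lost without DMSO library A (adjusted p = 0.278) or either PFI-3 library.

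Of 4 junction genes, 2 fell at each DM stage, beside 11.4% of all tested genes at 24 h and 14.0% at 48 h. Jph1 was at 25.1 and 26.5 CPM with DMSO and 20.2 and 19.2 with PFI-3 at 24 h, and at 109 and 105 CPM with DMSO and 80.8 and 80.4 with PFI-3 at 48 h, log2 differences of -0.39 ± 0.08 (SE; edgeR adjusted p = 0.00421) and -0.40 ± 0.07 (0.000704). Jph2 was at 157 and 156 CPM with DMSO and 113 and 108 with PFI-3 at 24 h (-0.51 ± 0.10, adjusted p = 0.00456) and at 439 and 413 CPM with DMSO and 375 and 330.01 with PFI-3 at 48 h (-0.27 ± 0.10, 0.0619). The groups of both junctophilins did not overlap at either stage. Speg, a kinase that associates with the triad, passed at 48 h (-0.30 ± 0.08, adjusted p = 0.0129), a call lost without PFI-3 library B (adjusted p = 0.106) or either DMSO library. Sypl2 had 18 and 23 counts with DMSO and 28 and 32 with PFI-3 at 48 h, a ratio of 1.40 with a counting interval of 0.928 to 2.14.

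Genes of excitability and store-operated entry included the largest fall at 48 h. Clcn1 had 32 and 44 counts with DMSO and 8 and 6 with PFI-3 at 48 h, a log2 difference of -2.48 ± 0.51 (SE; edgeR adjusted p = 0.00328). With PFI-3 it was at 0.627 and 0.468 CPM at 48 h, inside the range of 0.396 and 0.697 CPM at 24 h with DMSO. At 24 h it had 5 and 9 counts with DMSO and 4 and 2 with PFI-3 (adjusted p = 0.295), and the ratio of 0.417 had a counting interval of 0.131 to 1.15. Scn4a was at 9.27 and 11.5 CPM with DMSO and 2.97 and 3.36 with PFI-3 at 24 h, and at 75.1 and 69.0 CPM with DMSO and 45.0 and 43.8 with PFI-3 at 48 h, differences of -1.72 ± 0.17 and -0.70 ± 0.10 that passed at both. Stim1 and Orai1 are the sensor and the pore of store-operated calcium entry. Stim1 was at 26.5 and 25.2 CPM with DMSO and 25.6 and 26.4 with PFI-3 at 24 h, where its groups overlapped, and at 87.1 and 87.9 CPM with DMSO and 49.8 and 46.4 with PFI-3 at 48 h (-0.86 ± 0.10, adjusted p = 6.64e-05). Orai1 was at 71.2 and 72.2 CPM with DMSO and 61.9 in both libraries with PFI-3 at 48 h (-0.21 ± 0.07, adjusted p = 0.0365), a call lost on leaving out any 1 of the 4 libraries (adjusted p 0.121 to 0.161).

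**Figure D3:**
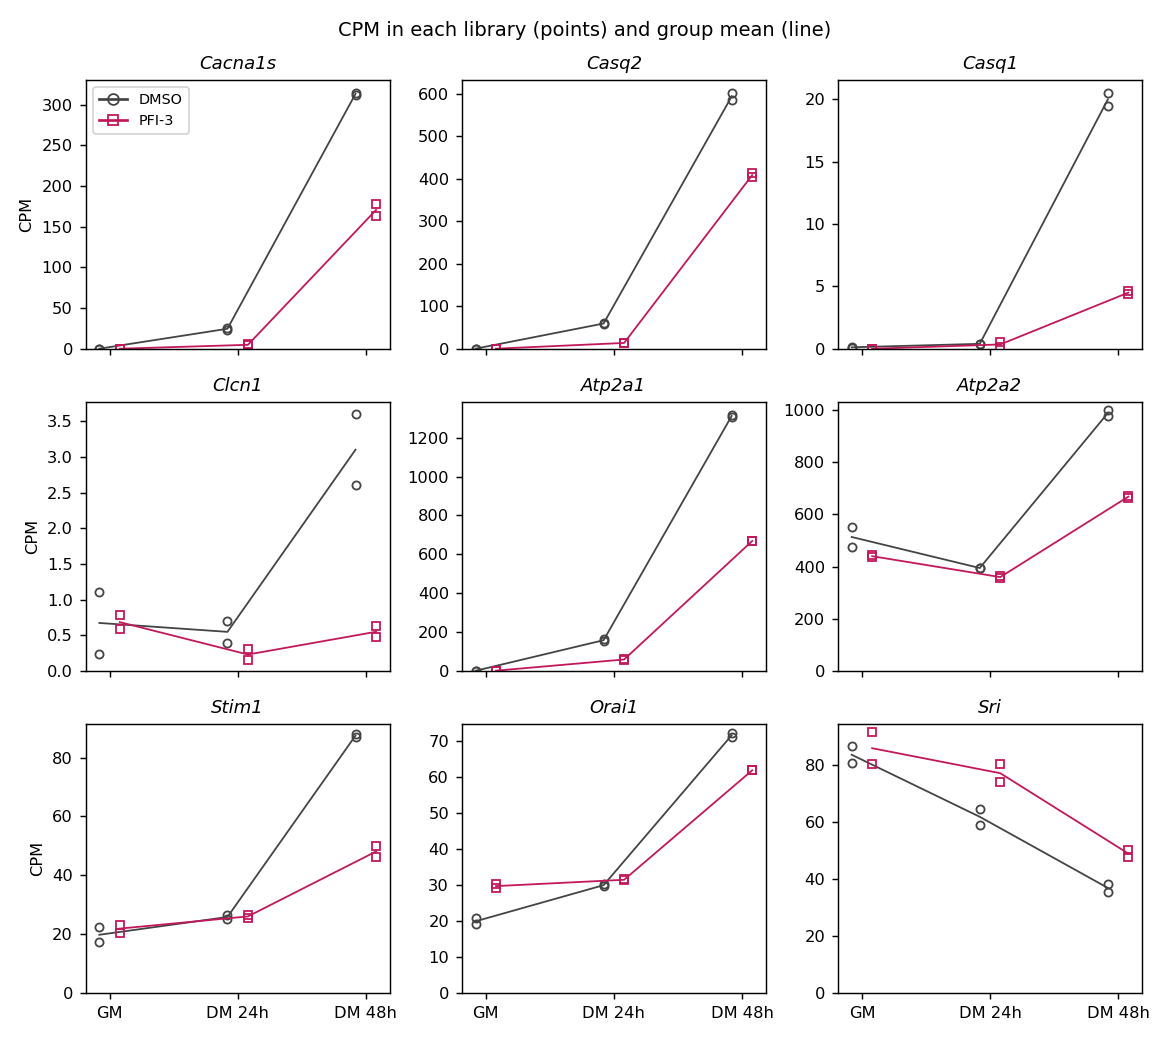
CPM of 9 genes in each library (points) and the group means (lines) over GM, DM 24h and DM 48h for DMSO and PFI-3; each panel has its own linear axis from 0. Cacna1s, Casq2 and Atp2a1 are lower with PFI-3 from DM 24h on, Casq1, Clcn1, Stim1 and Atp2a2 pass the test at 48 h, and Sri declines from stage to stage and is higher with PFI-3 at both DM stages.

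Whether the PFI-3 difference itself changed between the stages was tested with an interaction term. Of the 39 genes, 9 had a less negative difference at 48 h than at 24 h and 2 a more negative one, where the term was positive for 7.12% of all tested genes and negative for 4.97%. The change in the log2 difference was 1.59 ± 0.15 for Casq2 (SE; edgeR adjusted p = 5.68e-05), 1.46 ± 0.18 for Cacna1s (0.000405), 1.09 ± 0.12 for Srl (0.000121), 1.02 ± 0.20 for Scn4a (0.0089) and 0.85 ± 0.23 for Trim72 (0.0307). It was 0.74 ± 0.15 for Camk2a (0.00686), 0.73 ± 0.17 for Hrc (0.0142), 0.46 ± 0.10 for Atp2a1 (0.00845) and 0.29 ± 0.08 for Bin1 (0.0351). In the other direction it was -0.87 ± 0.15 for Stim1 (0.0029) and -0.43 ± 0.10 for Atp2a2 (0.0124). Among genes lower at 24 h, these were 1 of 3 in the voltage sensor and 3 of 5 in the store, and Cacnb1, Stac3, Jsrp1 and Tmem38a did not pass (adjusted p = 0.182, 0.0745, 0.114 and 0.0765). Cacna1s, Casq2, Srl and Stim1 passed under each of 18 alternatives.

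The other interaction calls depended on single libraries, on which libraries were fitted, or on the measure or filter. With all 12 libraries, limma on log2(FPKM + 1) did not call Scn4a and Trim72. Limma on log2(FPKM + 0.1) did not call Atp2a1, Camk2a, Hrc and Trim72, and edgeR with no low-count filter did not call Bin1. Bin1 passed in none of the 8 fits that left out 1 library (adjusted p 0.0828 to 0.154, highest without DM 48h DMSO library A). Trim72 and Atp2a2 each lost the call in 5 of the 8 (0.2 and 0.0592 at most, both without DM 24h PFI-3 library B). Hrc lost it in 4 (0.0979 without DM 24h PFI-3 library A), Atp2a1 in 2 (0.062 without DM 24h DMSO library B), Camk2a in 1 (0.0618 without DM 24h PFI-3 library B) and Scn4a in 1 (0.0684 without DM 24h PFI-3 library A). The fit without the GM libraries kept these 11 and added 13, for 16 genes less negative and 8 more negative, beside 17.1% and 16.5% of all genes. Among the added genes, Casq1 had a change of -1.97 (adjusted p = 0.0295, against 0.079 with 12 libraries) and S100a1 one of -0.51 (0.002 against 0.0909). Clcn1 did not pass in either fit (adjusted p = 0.489 with 12 libraries), and of 18 alternatives only limma on log2(FPKM + 1) called it, so its lower value at 48 h was not shown to be a stage difference.

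In GM, 3 of the 39 genes passed: Orai1 was higher with PFI-3, and Fkbp1a and Bin1 were lower, beside 5.46% of all tested genes higher and 6.15% lower. Orai1 was at 20.7 and 19.1 CPM with DMSO and 30.3 and 29.1 with PFI-3 (0.58 ± 0.08, SE; edgeR adjusted p = 0.000924). Fkbp1a was at 629 and 519 CPM with DMSO and 409.6 and 429 with PFI-3 (-0.45 ± 0.08, adjusted p = 0.00562). Bin1 was at 166 CPM in both libraries with DMSO and 144 and 139 with PFI-3 (-0.23 ± 0.06, adjusted p = 0.027), a call lost without PFI-3 library B (adjusted p = 0.0805). The groups of these 3 genes did not overlap, but in GM that also held for genes that did not pass, so it is not support. The 12-library fit shares its spread between the close DM duplicates and the wider GM ones, and in a fit of the 4 GM libraries alone, with no replicate block, none of the 3 passed (adjusted p = 0.19 for Orai1, 0.279 for Fkbp1a and 0.423 for Bin1). That fit called 0.137% of all genes higher and 0.137% lower. With a replicate block, which fits the letters A and B as a term, the GM libraries alone gave 393 genes higher and 348 lower among 11656. Orai1 then passed (edgeR adjusted p = 0.0209), and Fkbp1a (0.0624) and Bin1 (0.194) did not. By group means, Orai1 was 1.49 times as high with PFI-3 before induction. At 24 h it was at 30.3 and 29.6 CPM with DMSO and 31.7 and 31.3 with PFI-3 (adjusted p = 0.537), and at 48 h it was lower with PFI-3.

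Paralogue use was described as the share of 1 gene in the summed FPKM of a pair. With DMSO, Atp2a1 made up 0.0694% ± 0.0490 (SD, n = 2) of Atp2a1 and Atp2a2 in GM, 34.2% ± 0.854 at 24 h and 62.8% ± 0.546 at 48 h. With PFI-3 the share was 17.5% ± 0.246 at 24 h and 56.1% ± 0.123 at 48 h, below both DMSO libraries at each stage. The share of the fast form was higher at the later DM stage in both treatments and was lower with PFI-3 at each DM stage. Ryr1 made up 59.0% ± 0.0450 of Ryr1 and Ryr3 at 24 h and 81.0% ± 0.285 at 48 h with DMSO, and 58.4% ± 0.263 and 82.0% ± 1.12 with PFI-3, so the release channels had nearly the same balance in both treatments. Tmem38a made up 70.7% ± 1.07 of Tmem38a and Tmem38b at 24 h with DMSO and 59.3% ± 3.24 with PFI-3, and 80.7% ± 0.558 and 79.1% ± 0.0120 at 48 h. Casq1 made up 4.49% ± 0.0685 of the calsequestrins at 48 h with DMSO and 1.51% ± 0.0336 with PFI-3. At 24 h it made up 0.903% ± 0.0674 with DMSO and 1.66% and 5.02% in the PFI-3 libraries, values that rest on 2 and 7 counts of Casq1. Casq2 was the main calsequestrin transcript in each DM group. With 2 libraries against 2, an exact permutation test of a share cannot give a two-sided p below 0.33, so none was run.

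**Figure D4:**
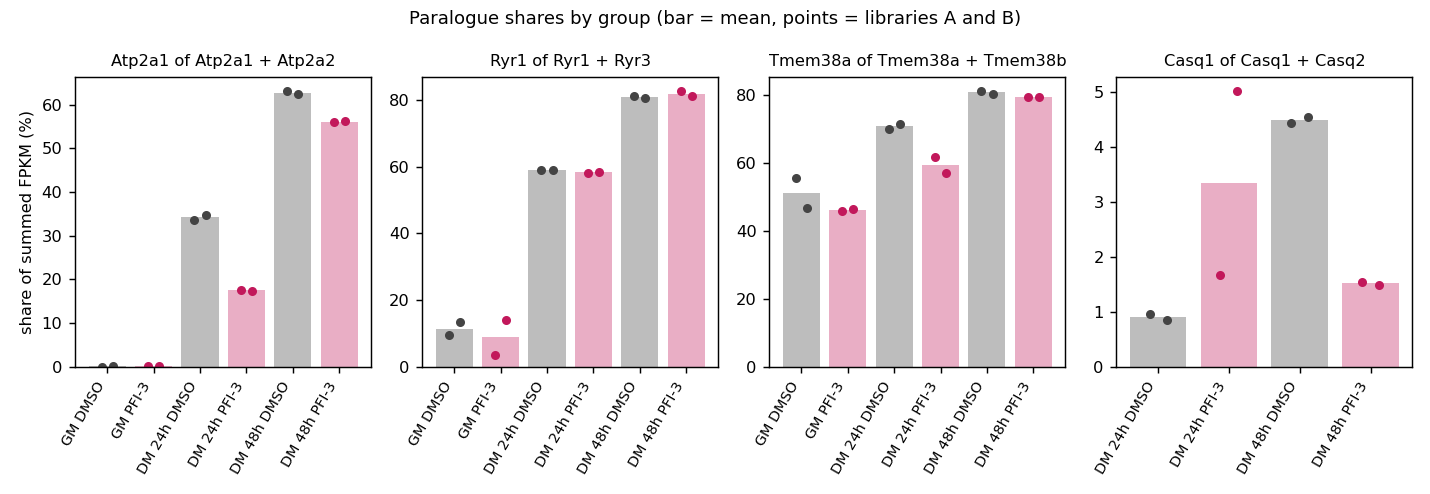
Share of Atp2a1, Ryr1, Tmem38a and Casq1 in the summed FPKM of each paralogue pair, in percent; group means and libraries A and B are shown for DMSO and PFI-3. The Atp2a1 share at 24 h is 34.2% with DMSO and 17.5% with PFI-3, and the Ryr1 shares of both treatments lie side by side.

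How far PFI-3 cells had moved along the DMSO time course was described for the 35 genes that rose from DM 24h to DM 48h with DMSO. The mean CPM at 48 h with PFI-3 was placed between the DMSO means of DM 24h (0%) and DM 48h (100%), with no test. The median position was 58.6%, 33 of the 35 genes lay between 0 and 100%, and 24 lay at 50% or more. The genes were chosen with the same DMSO libraries that set 0% and 100%. No position was computed for all genes that rose, so these counts are not shown to be particular to the set. Clcn1 was lowest at 0.0428%, at its DM 24h level, followed by Casq1 at 21.0%, Jsrp1 at 34.1%, Ryr3 at 34.8% and Stim1 at 36.1%. The Clcn1 position rests on 14 counts over both DM 24h DMSO libraries and 14 over both DM 48h PFI-3 libraries. Atp2a1 stood at 44.2%, Cacna1s at 50.6%, Casq2 at 65.4%, Srl at 67.4% and Ryr1 at 79.2%. By their means Mtm1 (114%) and Sypl2 (140.0%) lay beyond the DMSO level of DM 48h, but neither passed between the treatments at 48 h. The genes thus spread widely around the median. Of the 2 genes that fell with time, Itpr1 stood at 13.4% and Sri at 51.7%.

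**Figure D5:**
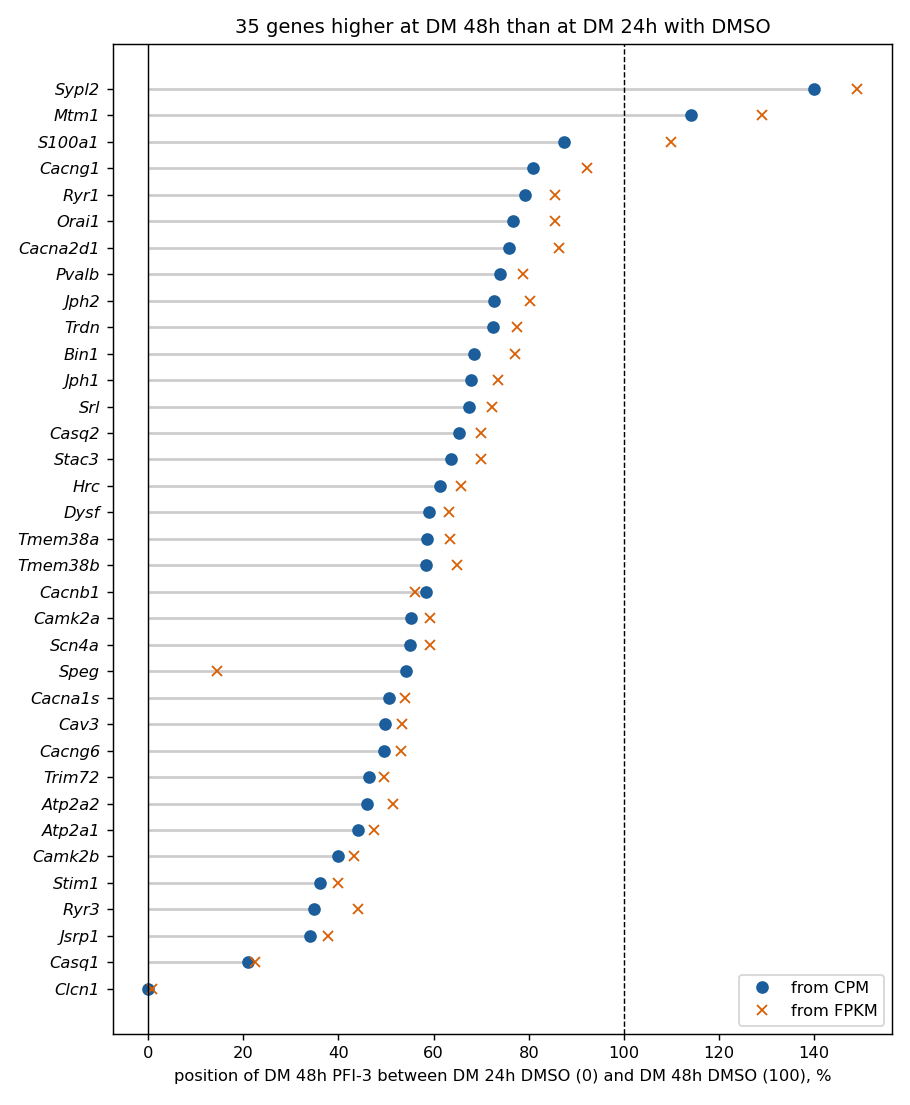
Position of the DM 48h PFI-3 mean between the DMSO means of DM 24h (0%) and DM 48h (100%) for 35 genes, from CPM and from FPKM. From CPM, Clcn1 and Casq1 lie lowest at 0.0428% and 21.0% and Sypl2 highest at 140.0%, with a median of 58.6%.

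Related genes outside the set were counted from a list of 88 other genes of calcium handling and muscle excitability, of which 83 were found and 71 tested. With PFI-3, 18 of the 71 were lower and 12 higher at 24 h (11.4% and 12.2% of all genes), and 20 were lower and 10 higher at 48 h (14.0% and 13.4% of all genes). The largest falls at 48 h were those of Cacna2d2, another auxiliary subunit of calcium channels (6.48 ± 0.838 CPM with DMSO and 0.547 ± 0.00129 with PFI-3, log2 difference -3.54 ± 0.35), and Kcna7, a potassium channel (2.24 ± 0.0484 CPM with DMSO and 0.274 ± 0.165 with PFI-3, log2 difference -2.99 ± 0.58). They were followed by Atp2a3, the remaining SERCA gene (7.09 ± 0.547 CPM with DMSO and 1.29 ± 0.390 with PFI-3, log2 difference -2.45 ± 0.36), and Rrad, a small GTPase that restrains calcium channels (45.4 ± 1.37 CPM with DMSO and 8.84 ± 0.353 with PFI-3, log2 difference -2.36 ± 0.15). The largest rises were those of Cacnb2, a beta subunit known from heart and brain (0.978 ± 0.227 CPM with DMSO and 2.78 ± 0.0618 with PFI-3, log2 difference 1.495 ± 0.35), and S100a4 (350.4 ± 13.3 CPM with DMSO and 576 ± 18.7 with PFI-3, log2 difference 0.72 ± 0.08). Next came S100a6 (141 ± 0.760 CPM with DMSO and 229.5 ± 9.58 with PFI-3, log2 difference 0.70 ± 0.14) and the sodium-calcium exchanger Slc8a1 (38.8 ± 3.01 CPM with DMSO and 51.3 ± 1.12 with PFI-3, log2 difference 0.40 ± 0.09). Of the beta subunits, Cacnb1 was lower and Cacnb2 higher with PFI-3 at 48 h. Cacnb3 and Cacnb4, also on the list, are not described here. Each of these 8 genes passed in the edgeR fit at 48 h, with adjusted p from 8.2e-07 (Rrad) to 0.0079 (Cacnb2).

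The tables also give a length for each gene and library, which was constant for the 10296 genes with 1 listed transcript and varied for 5160 of the 5992 genes with several. Of the 40 coupling genes, 18 list several transcripts. The length of Asph was 4468 ± 34.4 bases (SD, n = 2) in GM, 4207 ± 9.65 at 24 h and 3455 ± 29.2 at 48 h with DMSO, and 3778 ± 68.0 at 48 h with PFI-3. At 48 h its CPM overlapped between the treatments, while its length with PFI-3 lay between the DMSO values of the DM stages. Speg was at 5145 ± 76.2 bases in GM, 5080.2 ± 59.5 at 24 h and 6846 ± 360.4 at 48 h with DMSO, and at 5641 ± 118 and 6910.2 ± 17 with PFI-3 at 24 h and DM 48h. Because FPKM divides by this length, Speg had a time position of 54.2% from CPM and 14.5% from FPKM. The length of Srl was 6948 bases in both GM DMSO libraries, 6202.5 ± 68.6 at 24 h and 5906 ± 11.1 at 48 h with DMSO, and 5948 ± 8.26 at 48 h with PFI-3.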

How the data were processed

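RNA-seq of 12 libraries of C2C12 cells (6 groups of 2, groups taken from the labels) was analysed from one table per library. Per the file headers, the authors deposited for each gene an expected count, an FPKM value and a length. Per the submitters' processing notes, HISAT, StringTie, Cufflinks, Bowtie, RSEM and DESeq2 were used with build mm10. Their versions and roles are not given in the sources used here, and neither is the strand setting of the counting. Genes that a table does not list were taken as 0, and expected counts were rounded to whole numbers. Genes were filtered with filterByExpr, libraries were scaled with TMM, and edgeR 4.0.16 (R 4.3.3) fitted 1 quasi-likelihood model to the 6 groups. Benjamini-Hochberg adjusted p-values cover 12545 genes. All 40 genes of the set are accounted for. A fixed core, and members higher with PFI-3 or with a stage difference, are given by library; among other pathway genes, those with the largest changes at DM 48h are named. Members and lists were chosen with earlier results of these data known. Counting intervals are exact at 95% and the floor is 3 counts. Promoter windows of 250 bases were read from RefSeq on GRCm38.p6. Alternatives were other size factors, DESeq2 1.42.0, other filters, limma 3.58.1 on log2(FPKM + 1) and log2(FPKM + 0.1), fewer libraries, a replicate block, each library left out in turn and, added after seeing the data, a fit without the GM libraries. The fits were tested on simulated data.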

Additional observations from a re-analysis of the deposited data

Results flagged for a closer look

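For 11 genes the PFI-3 difference itself was called different between DM 48h and DM 24h by the interaction term of the edgeR fit of 12 libraries. The change in the log2 difference was positive, a smaller fall at DM 48h, for Casq2 (1.59), Cacna1s (1.46), Srl (1.09), Scn4a (1.02), Trim72 (0.85), Camk2a (0.74), Hrc (0.73), Atp2a1 (0.46) and Bin1 (0.29). It was negative, a larger fall at DM 48h, for Stim1 (-0.87) and Atp2a2 (-0.43). Beside these, the summed CPM of the 8 genes of differentiating muscle was 3431 and 3435 with DMSO and 1869 and 1871 with PFI-3 at DM 24h, and 18869 to 19003 against 12908 to 13229 at DM 48h. The part of these marker levels in the stage differences was not tested.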

How the results depend on the processing

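Of 3802 results of single genes under an alternative, 3562 kept direction and call, 114 gained a call, 126 lost one and 0 reversed. Counts below are numbers of coupling genes, and the cause of a move was not tested. Calls over all genes moved between fits as well, for example from 893 to 2117 positive interaction terms without the GM libraries. A changed count is therefore not shown to be particular to the coupling genes. Lower genes from DM 24h to DM 48h were 2, and 4 in a fit of only the libraries compared, with or without the replicate block, and without the GM libraries. For PFI-3 in GM, higher genes were 1, and 2 with limma on log2(FPKM + 1), 3 on log2(FPKM + 0.1) and 0 with only the GM libraries; lower genes were 2, and 0 with only those libraries, also with the block. Higher genes with PFI-3 were 3 at 24 h and 2 at 48 h; DESeq2 gave 0 and 1, and the block with 12 libraries gave 1 at 48 h. Positive interaction terms were 9, and 5 with log2(FPKM + 0.1), 16 with only the libraries compared or without the GM libraries, and 18 with the block. Negative ones were 2, and 4 with log2(FPKM + 1) and 8 in each of the last 3 fits. The share of positive terms among the calls went from 81.8% to 63.6% (FPKM + 1), 62.5% (FPKM + 0.1) and 66.7% (without GM).

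With each library left out in turn, the median log2 difference of the coupling genes was 1.95 to 2.18 for DM 24h against GM. For DM 48h against DM 24h it was 2.01 to 2.09. With PFI-3 it was 0.0 to 0.0212 in GM, -0.607 to -0.508 at 24 h and -0.47 to -0.416 at 48 h. For the interaction it was 0.169 to 0.318. Numbers of calls are not compared for these fits, because 1 group then holds 1 library and the calls over all genes moved as well. From CPM in place of FPKM, the Atp2a1 share was 28.6% (DMSO) and 14.0% (PFI-3) at 24 h, and 57.0% and 50.01% at 48 h. That of Ryr1 was 58.9% at 24 h with DMSO. That of Casq1 was 0.657% at 24 h and 3.26% at 48 h with DMSO, and 1.09% at 48 h with PFI-3. That of Tmem38a was 66.6% and 54.5% at 24 h, and 77.6% and 75.9% at 48 h. The single libraries behind each share ranged, at 24 h with DMSO and then PFI-3, over 33.6% to 34.8% and 17.3% to 17.7% (Atp2a1), 59.0% to 59.1% and 58.2% to 58.6% (Ryr1), 0.855% to 0.951% and 1.66% to 5.02% (Casq1), and 69.9% to 71.5% and 57.0% to 61.6% (Tmem38a). At DM 48h they ranged over 62.4% to 63.1% and 56.04% to 56.2%, 80.8% to 81.2% and 81.2% to 82.8%, 4.44% to 4.54% and 1.49% to 1.54%, and 80.3% to 81.1% and 79.1% to 79.2%. The median time position was 63.5% from FPKM.

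The letters A and B are not said to mark a shared day or batch, so they were not taken as pairs in the main fit. The deviations of same-letter libraries correlated at 0.504 in GM and at 0.0293 and 0.0465 in the DM stages. What the letters share in GM was not tested, so fits with the block are given as well. In the fit of the GM libraries alone the block moved the calls over all genes from 16 higher and 16 lower to 393 and 348, and Orai1 then passed (edgeR adjusted p = 0.0209) while Fkbp1a (0.0624) and Bin1 (0.194) did not. With the replicate block and 12 libraries, PFI-3 gave 3 higher and 20 lower genes at 24 h, and 26 lower at 48 h. With limma on log2(FPKM + 0.1), the PFI-3 calls of Casq2, Hrc, Stac3, Ryr1, Orai1 and Cacng6 at 48 h and of Ryr3 and Dysf at 24 h were lost. Depth limits Clcn1, Casq1, Trdn, Sypl2, Cacng6 and Camk2b, which had few counts at 24 h.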
